A study of Mus musculus with 7 samples.

Results

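S100 genes encode small EF-hand proteins that bind calcium, and 9 of them were examined among the 14820 genes of a table of RNA levels in 7 mouse skin papillomas: S100a8, S100a9, S100a3, S100a4, S100a6, S100a10, S100a11, S100a14 and S100a16. They were found by gene symbol, each matched 1 row, and all 9 passed the filter on low values (a mean of at least 10 normalized reads in either group). Papillomas are benign epidermal tumors. All mice received the mutagen DMBA once (50 nmol, when 3 weeks old), then the tumor promoter TPA repeatedly, together with doxycycline in the drinking water. Tissue was taken at 27 weeks, 10 days after the last TPA. The 3 p16 papillomas came from K5-rtTA/tet-p16 mice, in which doxycycline switches on a human p16 transgene through the Krt5 promoter, which is active in basal keratinocytes. The 4 control papillomas came from tet-p16 mice, which carry the transgene without the driver. Per the methods of the study, papilloma assays used female mice of a mixed background. The labels do not say whether the lesions came from separate mice, so p-values speak only of how much these lesions varied.

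S100 proteins usually act as dimers. When calcium binds, most of them expose a surface that grips a target protein, such as an annexin or a myosin. S100a8 and S100a9 form the heterodimer calprotectin, which also binds zinc and manganese, is abundant in neutrophils and in stressed or hyperproliferative keratinocytes, and signals through Tlr4 and the receptor Ager once it is released. Most S100 genes lie side by side in the epidermal differentiation complex, next to genes of the cornified envelope.

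The comparison asked which of these genes differed between p16 and control papillomas. The alarmin pair S100a8 and S100a9 rose more than 4-fold in p16 papillomas, S100a6 fell, and the other 6 genes did not pass the test, although each had a lower mean in p16 papillomas. Of the 9 genes 2 rose and 1 fell at an adjusted p under 0.05 (limma on log2(value + 1), Benjamini-Hochberg over 10466 genes), where 5.62% of all genes tested were called, 2.66% rising and 2.96% falling. On recovered reads edgeR also called 2 higher and 1 lower (2.72% and 2.47% of all genes), and DESeq2 called 2 of each (3.78% and 3.76%). The groups did not overlap for 2 genes that were higher (9.25% of all genes) and 2 that were lower (10.4%). At an unadjusted p under 0.05 there were 2 higher and 5 lower (9.66% and 11.6% of all genes). The median log2 change of the 9 genes was -0.52, against -0.02 over all genes tested. Levels below are the authors' normalized read counts, and a log2 change is the p16 mean minus the control mean of log2(value + 1). Libraries held 1158035 reads (p16 2) to 4365391 reads (p16 3).

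**Figure D1:**
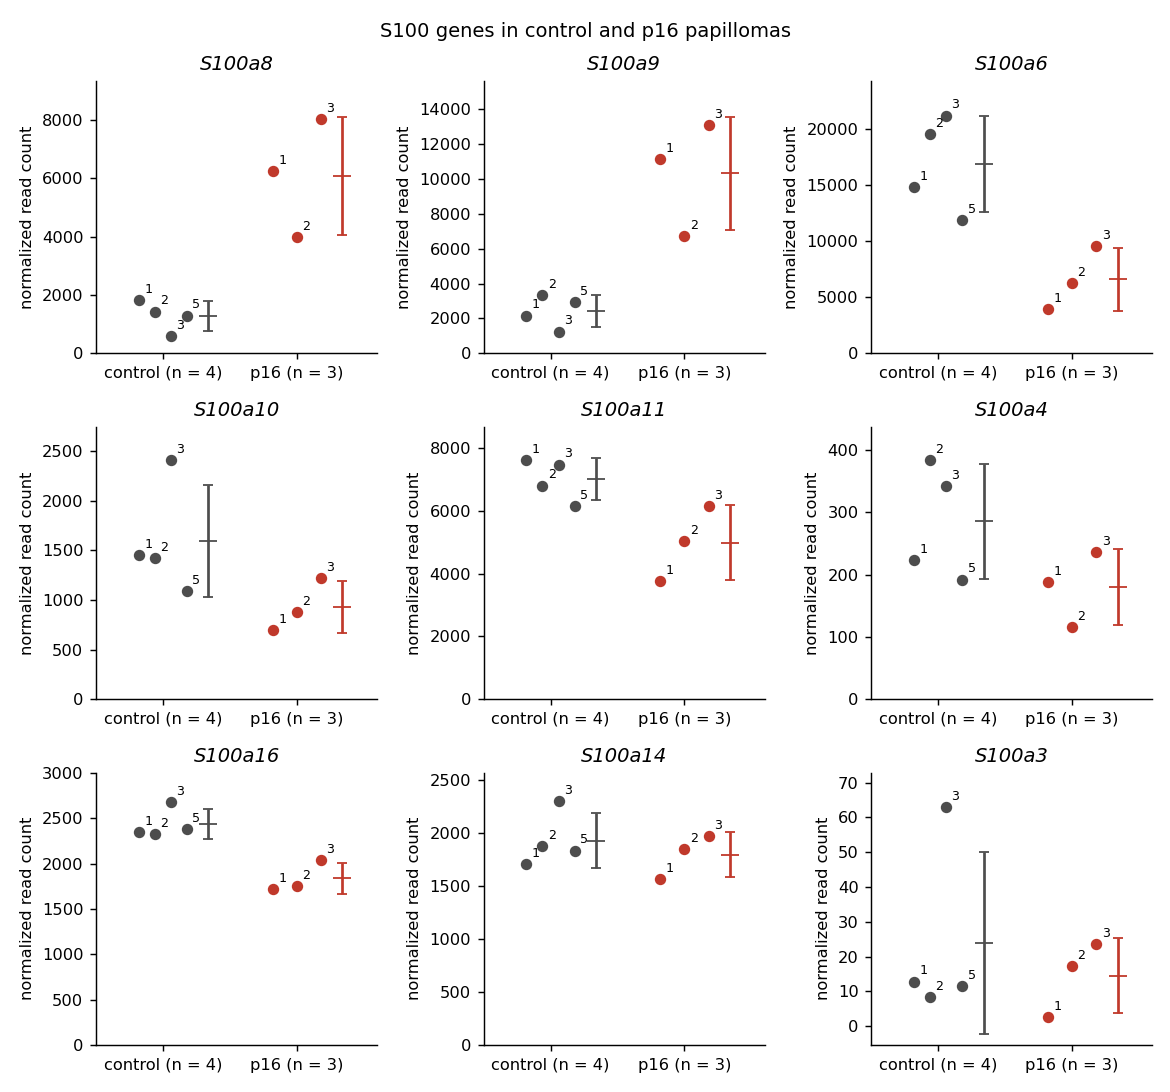
Normalized read counts (y axis, linear, 1 panel per gene) of the 9 S100 genes in each papilloma. Points are papillomas with their number, and the bar beside them is the mean with SD. For S100a8 and S100a9 all 3 p16 papillomas lie above all 4 controls, for S100a6 and S100a16 all 3 lie below, and the groups overlap for the other 5 genes.

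S100a8 (ENSMUSG00000056054, chromosome 3, 90668978 to 90670035, GRCm38) was at 1836, 1430.2, 587 and 1292 normalized reads in control papillomas 1, 2, 3 and 5, and at 6251, 3977 and 8020.5 in p16 papillomas 1, 2 and 3. The lowest p16 value was above the highest control value, and control 3 was the lowest of all. The means were 1286 ± 520.3 (SD, n = 4) and 6083 ± 2027 (SD, n = 3), and the log2 change was 2.30 (SE 0.34, limma adjusted p = 0.00307), or 4.91-fold with a 95% interval of 2.92 to 8.28. It kept its call without any single papilloma, with changes of 1.96 to 2.57.

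S100a9 (ENSMUSG00000056071, chromosome 3, 90692632 to 90695721), the partner of S100a8 in calprotectin, was at 2158, 3319, 1248 and 2959.8 normalized reads in the controls and at 11136, 6724 and 13101 in the p16 papillomas. Again the groups did not overlap, control 3 was lowest, and p16 2 was the lowest of the p16 papillomas. The means were 2421 ± 921 (SD, n = 4) and 10320.2 ± 3266 (SD, n = 3). The log2 change was 2.13 (SE 0.32, limma adjusted p = 0.00311), or 4.38-fold with a 95% interval of 2.70 to 7.12, and it kept its call without any single papilloma (1.84 to 2.41).

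The S100a8 to S100a9 ratio of normalized reads was 0.851, 0.431, 0.470 and 0.436 in the controls and 0.561, 0.591 and 0.612 in the p16 papillomas. The p16 papillomas lay within the range of the controls and closer together, with control 1 apart from the other controls. The mean log2 ratio was -0.93 ± 0.47 (SD, n = 4) in controls and -0.77 ± 0.06 (SD, n = 3) in p16 papillomas, a difference of 0.17 (two-sided exact permutation test, p = 0.743, the smallest p this design allows being 0.0571). Without control 1 every p16 ratio lay above every control ratio, with a difference of 0.40 (exact permutation p = 0.100, the smallest that 3 against 3 papillomas allow).

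S100a8 and S100a9 lie 22596 bases apart on opposite strands. S100a7a lies 10308 bases before S100a8. The 250 bases before the RefSeq transcription start are printed for the S100 genes that rose (S100a8 and S100a9) and for the neighbors that fell (S100a6 and S100a7a). Sequences are from RefSeq on GRCm38.p6, 5′ to 3′ on the strand of the gene, and capitals mark matches to the letters TATAAA (the core promoter element called TATA box) on the strand of the gene and, on either strand, to TGANTCA (AP-1, the factor that TPA activates), TTGCNNAA (C/EBP) or GGGA and CC spaced by 4 bases (NF-kB). No matches overlapped.
S100a8, chr3:90668821-90669070, plus strand: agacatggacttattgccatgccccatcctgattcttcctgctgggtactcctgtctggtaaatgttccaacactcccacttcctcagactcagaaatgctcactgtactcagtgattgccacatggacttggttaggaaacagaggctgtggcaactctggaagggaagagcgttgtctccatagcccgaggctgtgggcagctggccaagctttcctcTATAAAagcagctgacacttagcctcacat
S100a9, chr3:90695722-90695971, minus strand: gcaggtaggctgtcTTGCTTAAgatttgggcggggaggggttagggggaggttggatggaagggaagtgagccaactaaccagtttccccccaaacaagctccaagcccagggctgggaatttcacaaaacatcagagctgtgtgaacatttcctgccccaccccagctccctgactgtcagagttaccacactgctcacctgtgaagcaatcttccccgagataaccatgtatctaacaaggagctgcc
S100a6, chr3:90612644-90612893, plus strand: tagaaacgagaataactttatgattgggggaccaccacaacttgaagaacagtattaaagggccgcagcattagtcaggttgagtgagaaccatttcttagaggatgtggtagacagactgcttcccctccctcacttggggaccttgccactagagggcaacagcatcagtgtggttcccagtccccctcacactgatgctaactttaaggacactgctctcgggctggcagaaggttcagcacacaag
S100a7a, chr3:90654052-90654301, plus strand: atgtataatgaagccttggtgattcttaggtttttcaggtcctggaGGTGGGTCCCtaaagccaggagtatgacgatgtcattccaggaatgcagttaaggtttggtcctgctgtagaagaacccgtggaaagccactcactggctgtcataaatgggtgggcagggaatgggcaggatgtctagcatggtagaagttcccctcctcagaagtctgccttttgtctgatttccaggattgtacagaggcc

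S100a8 held a TATA box match whose first base lies at -30 from the start, S100a9 a C/EBP match at -236 and S100a7a an NF-kB match on the other strand at -204. The stretch before S100a6 held none of the 4 motifs. Counting both strands, the TATA letters occur in 12.4% of 32851 RefSeq promoters of this length, the AP-1 letters in 6.75%, the C/EBP letters in 9.56% and the NF-kB letters in 17.6%. Promoter entries were matched for 7 of the 9 genes, all but S100a10 and S100a14. S100a11 held 2 AP-1 matches (TGAGTCA at -136 and -38) and 1 NF-kB match, S100a4 a TATA match at -31 and an NF-kB match, 1 of the 2 S100a16 promoters an AP-1 match and 1 of the 4 S100a3 promoters a TATA match.

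S100a6 (calcyclin, ENSMUSG00000001025, chromosome 3, 90612882 to 90624181), which binds annexins and the ubiquitin ligase adaptor Cacybp, was at 14827, 19544, 21231 and 11918 normalized reads in the controls and at 3963, 6264 and 9598 in the p16 papillomas. The groups did not overlap, with p16 1 lowest. The means were 16880 ± 4276 (SD, n = 4) and 6608 ± 2833 (SD, n = 3). Its log2 change was -1.41 (SE 0.29, limma adjusted p = 0.0163), or 2.65-fold lower with a 95% interval of 1.71 to 4.11. The call was lost without control 2 (adjusted p = 0.0523), p16 1 (0.0661) or p16 2 (0.0664), with changes between -1.09 and -1.72 over the 7 omissions. Whole lesions were sequenced, so fewer cells that express a gene and less of its RNA per cell cannot be told apart.

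S100a10 and S100a11 stand 28792 bases apart in a second group of S100 genes, 2824766 bases beyond S100a9, and their proteins bind annexins A2 and A1. S100a10 (p11, ENSMUSG00000041959, chromosome 3, 93555080 to 93564643) differs from its relatives in that it does not bind calcium. It was at 1454, 1418, 2408 and 1091 normalized reads in the controls and at 694, 877 and 1216 in the p16 papillomas, so that p16 3 lay above control 5 and control 3 stood highest. The log2 change was -0.75 (95% interval -1.32 to -0.19, limma adjusted p = 0.116). DESeq2 on recovered reads called it (-0.78, adjusted p = 0.0416), where it called 3.76% of all genes lower.

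S100a11 (calgizzarin, ENSMUSG00000027907, chromosome 3, 93520488 to 93526287) was at 7629.95, 6810.5, 7479 and 6155 normalized reads in the controls and at 3761, 5048 and 6162 in the p16 papillomas. Only control 5 and p16 3 overlapped, by a few normalized reads. The log2 change was -0.52 (95% interval -0.92 to -0.11, limma adjusted p = 0.131).

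The annexin genes differed from each other. Anxa1, which encodes the partner of S100a11, was at 3899, 3675, 7341 and 3716 normalized reads in the controls and at 1668, 1415 and 2083 in the p16 papillomas, and fell with a log2 change of -1.39 (SE 0.24, limma adjusted p = 0.00694). The S100a11 to Anxa1 ratio was 1.96, 1.85, 1.02 and 1.66 in the controls and 2.25, 3.57 and 2.96 in the p16 papillomas, without overlap. Its difference between groups was not tested and restates that Anxa1 had the larger fall. Anxa2, the partner of S100a10, had a log2 change of -0.53 (adjusted p = 0.200), and the S100a10 to Anxa2 ratio overlapped between groups (0.287 to 0.473 in controls, 0.274 to 0.372 in p16 papillomas). Of 16 tested annexins and other binding partners 2 fell and 0 rose by limma (2.96% and 2.66% of all genes), with a median log2 change of -0.03. At an unadjusted p under 0.05 limma had 2 higher and 4 lower (9.66% and 11.6% of all genes). Of adjusted calls edgeR had 0 higher and DESeq2 1. Anxa3 also fell (-1.66, adjusted p = 0.0186). Among the others, Ahnak2 was at 0.83 (adjusted p = 0.0594) and Myh9, the non-muscle myosin that S100a4 binds, at -0.48 (adjusted p = 0.0975).

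**Figure D2:**
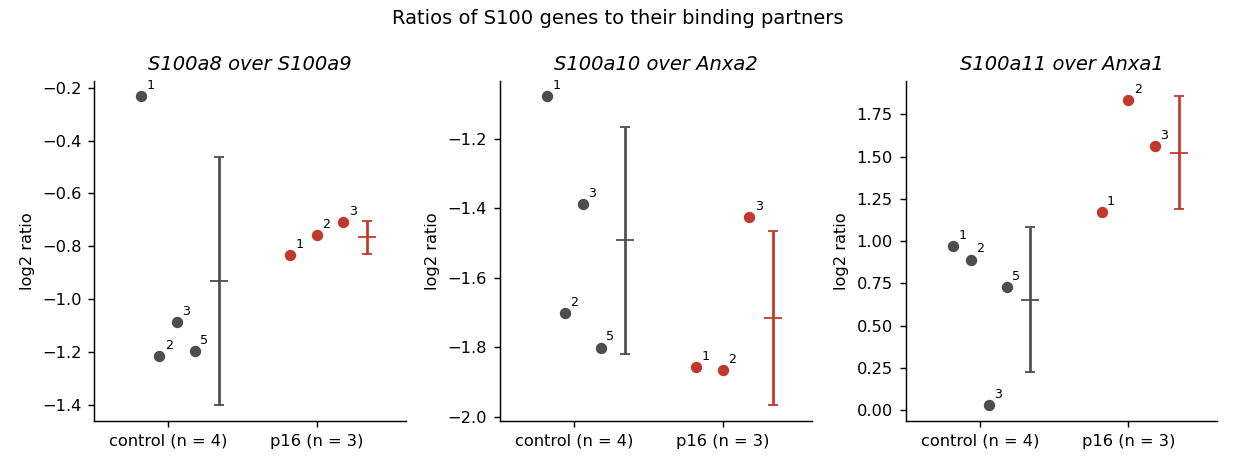
Log2 ratio (y axis) of S100a8 to S100a9, S100a10 to Anxa2 and S100a11 to Anxa1 in each papilloma, with the mean and SD beside the points. The S100a11 to Anxa1 ratio runs from 0.03 to 0.97 in controls and from 1.17 to 1.83 in p16 papillomas, and the other 2 ratios overlap.

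S100a4 (ENSMUSG00000001020, chromosome 3, 90603771 to 90606045), known for its part in cell motility and as a fibroblast gene, was at 224, 384, 341 and 192 normalized reads in the controls and at 188, 116 and 237 in the p16 papillomas. The groups overlapped, with p16 3 above controls 1 and 5. The log2 change was -0.66 (95% interval -1.28 to -0.04, limma adjusted p = 0.207). Fibroblast marker sums (8 of 8 markers in the table) ran from 4624 to 13204 normalized reads in controls and from 3780.3 to 19496 in p16 papillomas, and their part in this value was not tested. Of the 8 markers 1 rose and 0 fell by limma (2.66% and 2.96% of all genes). The marker that rose was Dcn, a matrix proteoglycan (2.14, limma adjusted p = 0.0280, also called by edgeR and DESeq2). Its groups did not overlap, as for 9.25% of all genes tested that were higher. The other 7 markers did not pass.

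S100a16 and S100a14 varied least. S100a16 (ENSMUSG00000074457, chromosome 3, 90537254 to 90543151) was at 2349, 2324, 2679 and 2383 normalized reads in the controls and at 1722, 1754 and 2037 in the p16 papillomas. All p16 values were lower, as for 10.4% of all genes tested, and the log2 change was -0.41 (95% interval -0.71 to -0.11, limma adjusted p = 0.112). S100a14 (ENSMUSG00000042306, chromosome 3, 90526856 to 90528837), an epithelial member, was at 1702, 1872, 2295 and 1830.3 normalized reads in the controls and at 1560.4, 1847 and 1969 in the p16 papillomas. Here the groups overlapped over most of their range, with a log2 change of -0.10 (95% interval -0.44 to 0.23, adjusted p = 0.755).

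S100a3 (ENSMUSG00000001021, chromosome 3, 90560578 to 90602702), a cysteine-rich protein of the hair cuticle, was the most weakly measured of the 9 and the only 1 that the authors did not mark as expressed in sorted keratinocytes. It was at 12.8, 8.46, 63.0 and 11.6 normalized reads in the controls and at 2.69, 17.4 and 23.5 in the p16 papillomas, from 2 reads in p16 1 to 69 in control 3. The log2 change of -0.60 (95% interval -2.25 to 1.04, limma adjusted p = 0.691) turned to 0.01 without control 3 and to 0.24 without p16 1. Hair cortex and cuticle markers (11 of 12 in the table) summed to 50.2 normalized reads in control 3, the lowest of the controls, and to 39.0 to 142 in p16 papillomas. In the annotation its exons overlap those of the gene models Gm23464 and Gm42674, and those of S100a4 overlap Gm42674, so reads there are uncertain.

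The share of all reads that came from the 9 genes overlapped between groups, while its makeup did not. It was 0.915%, 1.13%, 1.24% and 0.849% in the controls and 0.904%, 0.794% and 1.32% in the p16 papillomas. S100a8 and S100a9 together took 0.114%, 0.144%, 0.0591% and 0.130% of reads in the controls and 0.537%, 0.319% and 0.658% in the p16 papillomas. The other 7 genes took 0.719% to 1.18% in controls and 0.367% to 0.662% in p16 papillomas, again without overlap. Without S100a6 the remaining 6 genes overlapped, at 0.356% to 0.492% in controls and 0.245% to 0.363% in p16 papillomas.

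**Figure D3:**
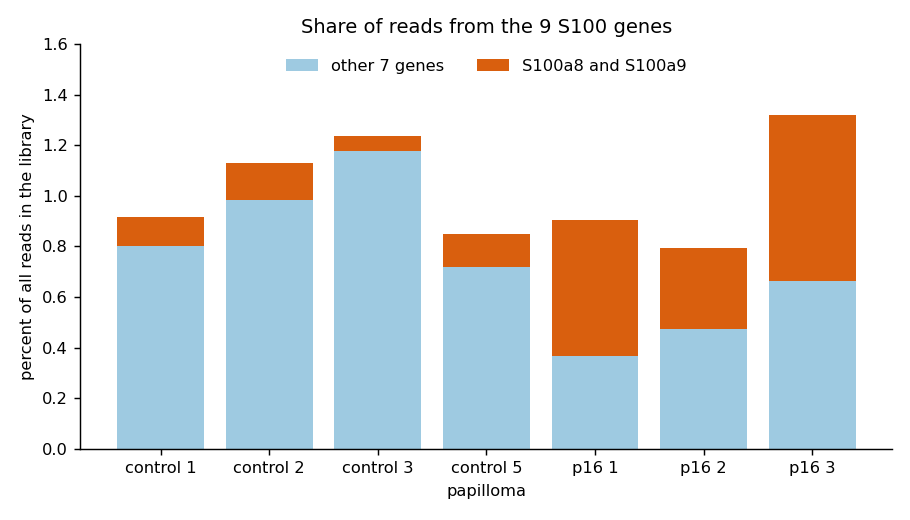
Percent of all reads in each library (y axis) from S100a8 and S100a9 (orange) and from the other 7 genes (blue), by papilloma. The orange part is 0.0591% to 0.144% in controls and 0.319% to 0.658% in p16 papillomas, while the total runs from 0.794% to 1.32% over all 7 libraries.

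Among the p16 papillomas, p16 3 had the highest value of all 9 genes, including those whose means were lower than in controls, and it was also the deepest library. p16 1 had the lowest value of 6 genes (S100a3, S100a6, S100a10, S100a11, S100a14 and S100a16) and p16 2 of the other 3. The controls had no such order: control 1 was highest for 2 genes, control 2 for 2 and control 3 for 5, and control 3 was lowest for S100a8 and S100a9.

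Among the other S100 genes, 5 were in the table and 3 passed the filter. S100a7a (ENSMUSG00000063767, chromosome 3, 90654017 to 90658669), the mouse relative of human psoriasin, was at 408, 451, 617 and 387 normalized reads in the controls and at 161, 101 and 171 in the p16 papillomas. It fell without overlap, with a log2 change of -1.69 (SE 0.22, limma adjusted p = 0.00142), and kept the call without any single papilloma. S100a1, a gene of striated muscle, had a log2 change of 0.53 (95% interval -0.33 to 1.40, adjusted p = 0.476). S100a13, which takes part in the release of proteins without a signal peptide, had a log2 change of 0.38 (95% interval -0.51 to 1.27, adjusted p = 0.641). Skeletal muscle markers summed to 175, 7190.2 and 1483 normalized reads in p16 1, 2 and 3, against 101 to 359 in controls. Limma called 0 of 8, with 7 higher at an unadjusted p under 0.05 (9.66% of all genes). By edgeR and DESeq2 6 were called higher (2.72% and 3.78% of all genes). Myh1 and Pvalb passed the filter only through the p16 group. The part of these markers in the S100a1 value was not tested. S100a2 was at 0 in the p16 papillomas and at most 8.22 in the controls, and S100b at 0 in the controls and at most 2.89 in the p16 papillomas.

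**Figure D4:**
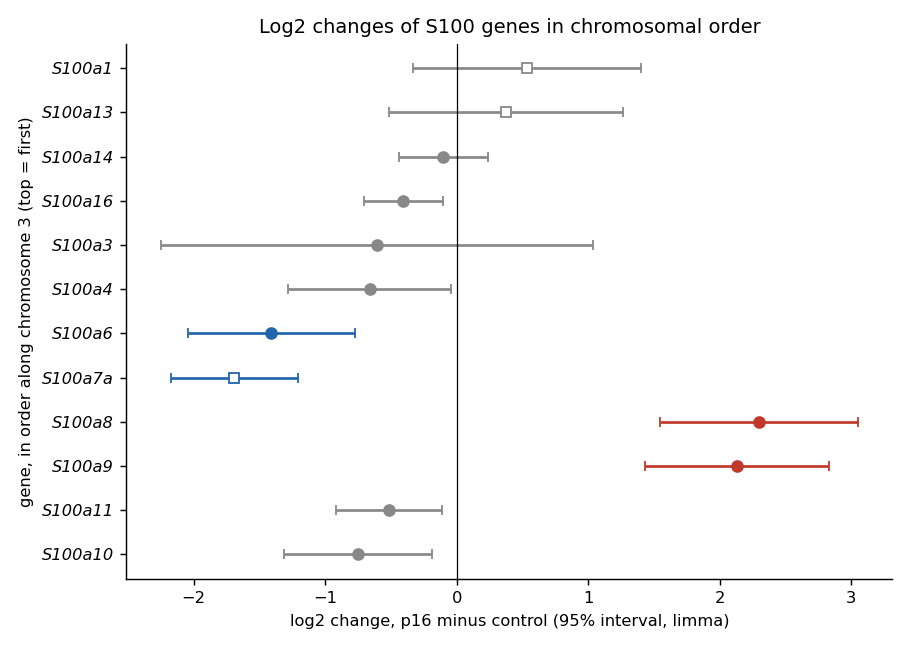
Log2 change, p16 minus control (x axis), of the 12 tested S100 genes with 95% limma intervals, in their order along chromosome 3. Circles are the 9 genes and open squares the other S100 genes. Red marks genes that rose, blue genes that fell and gray genes that did not pass. S100a8 and S100a9 stand at 2.30 and 2.13, directly after S100a6 and S100a7a at -1.41 and -1.69.

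The fused S100 genes, whose long proteins begin with an S100 domain and serve in the cornified layers, all had positive changes. Of 7 tested, 3 rose and 0 fell by limma (2.66% and 2.96% of all genes), with a median log2 change of 1.29. At an unadjusted p under 0.05, 6 were higher and 0 lower (9.66% and 11.6% of all genes). By edgeR 3 rose and 0 fell, and by DESeq2 5 rose, Rptn and Tchh added, and 0 fell. The genes that rose were Flg2 (1.64, limma adjusted p = 0.0212), Flg (1.49, adjusted p = 0.00454) and Hrnr (1.36, adjusted p = 0.00662). Rptn stood at 0.75 (adjusted p = 0.0561). The stretch of chromosome 3 from S100a14 to S100a10 (90526856 to 93564643) holds these genes and the late cornified envelope genes. Of its 50 tested genes that are not S100 genes, 23 rose and 8 fell, or 62.0% against 5.62% of all genes tested. Near-identical copies within the envelope families share reads, so single members of that stretch are uncertain.

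Calmodulin-type EF-hand genes, which sense calcium by the same fold, included 2 of 6 that rose and 0 that fell by limma (2.66% and 2.96% of all genes). At an unadjusted p under 0.05, 3 were higher and 1 lower (9.66% and 11.6% of all genes). By edgeR 1 rose and 0 fell, since Calm5 lost its call (adjusted p = 0.0521), and by DESeq2 2 rose and 0 fell. The 2 genes were the epidermal genes Calm4 (0.86, limma adjusted p = 0.0142) and Calm5 (1.12, adjusted p = 0.0438). Calm3 stood at -0.82 (adjusted p = 0.0561) and Calm2 at 0.37 (adjusted p = 0.226).

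Among 7 tested receptors and adaptors, 0 rose and 1 fell by limma (2.66% and 2.96% of all genes), with a median log2 change of 0.20. At an unadjusted p under 0.05, 1 was higher and 2 lower (9.66% and 11.6% of all genes). Of adjusted calls edgeR had 0 in either direction and DESeq2 1 lower. The gene that fell was Alcam, an adhesion molecule (-1.97, limma adjusted p = 0.0347). Tlr4 was weakly measured, at 7.25 to 18.3 normalized reads in controls and 8.68 to 26.9 in p16 papillomas. Its coreceptor Cd14 had a log2 change of -1.24 (adjusted p = 0.172) and Ly96 of 0.92 (adjusted p = 0.234). Ager did not pass the filter, with at most 12.1 normalized reads in any papilloma. Bsg, a surface receptor that binds S100a9, was at 764 to 1057 normalized reads in controls and 1013 to 1067 in p16 papillomas.

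Of 6 tested cytokine and Stat3 genes known to induce S100a8 and S100a9 in keratinocytes, 2 rose and 0 fell by limma. The shares over all genes tested were 2.66% and 2.96%, and the median log2 change of the 6 was 0.57. At an unadjusted p under 0.05, limma had 4 higher and 0 lower (9.66% and 11.6% of all genes), and DESeq2 3 higher and 1 lower. Of adjusted calls edgeR had 2 higher and 0 lower and DESeq2 3 higher and 0 lower. Il1f6 (interleukin 36 alpha) was at 640 to 1085 normalized reads in controls and at 1626, 1881 and 2123 in p16 papillomas, and rose by 1.31 on the log2 scale (limma adjusted p = 0.00295). Il1a rose by 1.57 (adjusted p = 0.0147), while Il1f8 stood at 0.74 (adjusted p = 0.0602) and Stat3 at 0.40 (adjusted p = 0.229). Il1b went the other way, at -1.04 (limma adjusted p = 0.404), with 6.32 to 59.2 normalized reads in controls and 7.35 to 17.5 in p16 papillomas. Il17a, Tnf and Osm did not pass the filter, with at most 7.30 normalized reads in any papilloma. Il6, Il17c and Il22 were not in the table. The part of these genes in the S100a8 and S100a9 values was not tested.

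Keratinocyte markers summed to 62999 to 83341 normalized reads in controls and 74977 to 98792 in p16 papillomas. Of 8 tested 2 rose and 1 fell (2.66% and 2.96% of all genes). Krt1 (1.47, limma adjusted p = 0.00221) and Krt10 (1.43, adjusted p = 0.00715), keratins of differentiating layers, rose. The desmosomal cadherin Dsg3 fell (-1.31, adjusted p = 0.00442). The basal keratin Krt14 was at -0.77 (adjusted p = 0.0593), lower without overlap as 10.4% of all genes tested were. The remaining markers did not pass and overlapped between groups. Krt15 was at 1.01 (adjusted p = 0.0968), Trp63 at 0.33, Dsc3 at 0.14 and Krt5 at -0.20. Neutrophils also carry calprotectin. Of their markers, 9 of 13 were in the table and 4 tested, and limma, edgeR and DESeq2 called 0 of these. By limma 2 of them, Ltf and Itgam, were lower with an unadjusted p under 0.05 (11.6% of all genes), against 1 by edgeR and 0 by DESeq2. The other tested markers, the receptors Csf3r and Cxcr2, had positive changes. Together they were at 88.0, 108, 75.8 and 139 normalized reads in controls and at 204, 107 and 91.9 in p16 papillomas. There p16 1 lay above every control and the other p16 papillomas within their range. Neutrophil markers without Ltf, with Csf3r and Cxcr2 included, summed to 108 to 170.3 in controls and 107 to 235 in p16 papillomas. Below the filter, Retnlg was at 2.11 to 24.2 in controls and at most 1.35 in p16 papillomas. Clec4e, Stfa2l1 and Mmp8 also had lower means in p16 papillomas, while Mpo and another Itgam entry had higher ones. Ltf, which glandular epithelia also make, was at 8087 in control 3 and 199 in control 2 and at most 7.38 elsewhere. Macrophage and dendritic markers summed to 324 to 553 in controls and 454 to 647 in p16 papillomas.

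Mast cell markers summed to 28.4 to 54.4 normalized reads in controls and 55.0 to 186 in p16 papillomas. The highest control (control 2) and the lowest p16 papilloma (p16 2) were less than 1 read apart. In p16 2, 1 read is worth 2.89 normalized units, and Cpa3 and Kit were at 0. Limma called 0 of 4, with 3 higher at an unadjusted p under 0.05 (9.66% of all genes). By edgeR and DESeq2 2 were called higher (2.72% and 3.78% of all genes). Cpa3, Mcpt4 and Cma1 passed the filter only through the p16 group, with control means of 4.87, 9.70 and 6.67. The filter thus favored higher genes in these counts. Of 2 tested adipocyte markers 1 rose and 0 fell by limma (2.66% and 2.96% of all genes). Adipoq rose (2.78, limma adjusted p = 0.0272), but passed the filter only through the p16 group (mean 35.9, against 5.36 in controls). Fabp4, which gave most of the sum, was at -1.54 (adjusted p = 0.0764). Plin1, Cidec, Lep and Plin4 were below the filter, with at most 12.5 normalized reads in any papilloma. Of these, Plin1 and Cidec were higher without overlap, as 9.25% of all genes tested were, and Lep and Plin4 overlapped. The part of neutrophils, mast cells, adipocytes and fibroblasts in the S100 values was not tested.

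The genes whose pattern was most like that of each S100 gene were sought among genes with a mean of at least 50. The measure was the root mean square distance between log2 profiles, centered over the 7 papillomas. It includes the difference between groups, so genes with a similar log2 change lie close for that reason alone. The nearest of 5842 genes to S100a8 was S100a9 (distance 0.32), followed by Atp1b1 (0.42), a sodium pump subunit, and Dcn (0.46), the fibroblast marker that rose. For S100a9 they were S100a8, Atp1b1 (0.37) and Dcn (0.40). S100a6 was nearest to Emp3 (0.15), a membrane protein, S100a10 to Ppp2cb (0.15), a phosphatase subunit, and S100a4 to Vwa1 (0.13), a matrix protein. The nearest to S100a3 was Tmem176a, at a distance of 0.65.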

How the data were processed

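RNA of whole papillomas was profiled by CEL-Seq2, which sequences 3′ ends. Per the methods and the submitters' processing notes, the authors trimmed reads with Cutadapt, aligned them to GRCm38 with TopHat2 and counted them per gene with HTSeq. Versions, the annotation and the strand setting are not given in the sources used here. The deposited signal values are read counts that the authors scaled with DESeq2, using a single size factor for each library. Every value was a whole multiple of 1 read (100% at a tolerance of 0.001 reads), so reads were recovered. The table also holds the authors' fold changes and p-values, which were not used.

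The log2(value + 1) values of 4 control and 3 p16 papillomas (by title) were tested with limma 3.58.1 and an intensity trend, two-sided, over the 10466 genes whose mean reached 10 in at least 1 group. Alternatives were pseudocounts, filters, scalings, edgeR 4.0.16, DESeq2 1.42.0, limma-voom, a replicate block and the omission of each papilloma. The members and lists were chosen with earlier results of these data known. Named genes are the 9 members, other S100 genes, up to 4 members of each related list with the smallest p, and the 3 genes most like each member. Anxa2, Tlr4, Ager, Bsg, Il1b, the cytokines below the filter and single markers were named outside this rule, after their values were seen. Positions are from GENCODE M21 on GRCm38 (14801 of 14820 identifiers matched). R 4.3.3 and Python 3.11.15 were used.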

Additional observations from a re-analysis of the deposited data

Results flagged for a closer look

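Of 14 sets of 4 control values compared, 3 had a papilloma that stood apart from the others by Dixon's ratio at its 95% critical value, where chance alone sets apart about 1 in 20. S100a3 was at 63.0 normalized reads in control 3, against 8.46 to 12.8 in the other controls. S100a16 was at 2679 normalized reads in control 3, against 2324 to 2383. The log2 ratio of S100a8 to S100a9 was -0.23 in control 1, against -1.09 to -1.21. S100a3 and S100a16 were thus set apart on linear normalized reads, not on the log2 scale of the test between groups.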

How the results depend on the processing

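S100a8, S100a9 and S100a7a kept their direction and their call under every alternative run, and the 2 rises among the 9 genes stayed 2. The 1 fall became 2 with DESeq2 on recovered reads and 2 with the replicate block, each time by S100a10 (log2 change -0.78 and -0.91), and ranged from 0 to 1 over the omissions of single papillomas. S100a3 reversed to 0.01 without control 3 and to 0.24 without p16 1, and ranged from -1.13 to 0.24 over the omissions. It was not tested with a mean of at least 50. The count of 588 genes called over the table came to 270 with the replicate block and to 267 to 548 over the omissions. S100a4, S100a11, S100a14 and S100a16 had negative changes and no call under every alternative. The difference of the log2 S100a8 to S100a9 ratio ranged from 0.07 to 0.40 over the omissions. The labels do not say whether same-numbered papillomas share more than a number. Their deviations from the group means had correlations across genes of -0.09, -0.01 and -0.05. Pairs with unlike numbers ran from -0.07 to 0.11, and so few papillomas cannot settle this. Under the block 254 of the 588 calls were kept. Control 5 has no partner, so the block leaves it out of the estimate. The median change of all genes was -0.02 with the authors' size factors, -0.01 with library totals and -0.03 with TMM factors. Depth limits S100a3, with 2 to 69 reads a papilloma, and p16 2, where 1 read is worth 2.89 normalized units. Intervals from counts would cover counting error only.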
